A study of Rattus norvegicus with 6 samples.

Results

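Mitochondrial ribosomal proteins, whose genes carry the symbols Mrpl and Mrps, were followed in the livers of rats fed intravenously. The members were all rows of the expression table whose symbol begins with Mrpl or Mrps and a number. They came to 76 of 25926 rows, 46 with a large subunit symbol (Mrpl) and 30 with a small subunit symbol (Mrps). The samples were livers of Sprague-Dawley rats, 4 weeks old. The 3 control rats were given 0.9% saline and are labelled as normal. The 3 TPN rats were given total parenteral nutrition, a complete diet infused into a vein, for 7 days, and the series calls them PNALD rats, for parenteral nutrition-associated liver disease. The labels state no genetic change in either group, no sex and no pooling of animals. How the control rats were fed, and whether they carried a catheter, the labels do not say.

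The mitochondrial ribosome translates the small set of messages encoded by mitochondrial DNA, all of which are subunits of the respiratory chain and of ATP synthase. Its RNA is made in the mitochondrion, whereas all of its proteins are encoded in the nucleus, made in the cytosol and imported. Some of these proteins have bacterial relatives, and others are found only in mitochondrial ribosomes. The small subunit reads the message, and the large subunit joins the amino acids and feeds the chain into the inner membrane. The liver depends on the respiratory chain that this ribosome supplies for fatty acid oxidation, urea synthesis and gluconeogenesis.

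Values were FPKM, fragment numbers corrected for how long the transcript is and how many fragments were mapped, a relative level that can be compared between genes of different length. The 6 columns summed to between 509630 and 544670 FPKM, and the number of reads behind them is unknown. Albumin (Alb), the main plasma protein made by hepatocytes, had 32506 to 48388 FPKM in the control rats and 12828 to 39337 in the TPN rats. The 7 hepatocyte markers, Alb among them, were all above the filter of 1 FPKM. Their differences in log2(FPKM + 1), TPN minus control, were above 0 in 4 and below 0 in 3. The median was 0.089, and the differences ran from -1.44 to 0.85. The levels of some other marker genes also differed between the livers. The summed FPKM of 5 erythroid markers ran from 2124 to 2416 in control rats and from 230.2 to 577 in TPN rats. That of 6 cell cycle genes ran from 14.1 to 26.0 in control rats and from 0.756 to 2.61 in TPN rats. The 6 stellate cell markers summed to 104.9 to 171.8 FPKM in control rats and 69.3 to 99.3 in TPN rats, and the 5 cholangiocyte markers to 10.6 to 13.9 and 6.34 to 8.10 FPKM. The 6 Kupffer cell markers summed to 214 to 324 FPKM in control rats and 277 to 402 in TPN rats. Sums of 4 neutrophil markers were 5.47 to 24.5 FPKM in control rats and 13.5 to 39.9 in TPN rats. Those of 4 endothelial markers were 45.3 to 73.3 and 54.1 to 70.4 FPKM. The 10 measured acute-phase genes summed to 19107 to 51720 FPKM in control rats and 37319 to 101050 in TPN rats. None of the T and NK cell, B cell and muscle markers reached a mean of 1 FPKM, and Acta1, of skeletal muscle, was at 0 in every rat. In whole tissue, fewer cells of a type and less RNA per cell cannot be told apart, and the part of these shifts in the values below was not tested.

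The mitoribosomal genes were spread over a narrow range of levels and differed little between the groups. Of the 76 members, 75 had a mean of at least 1 FPKM and were tested. The exception, Mrps21l, was listed at 0, 0.326 and 0 FPKM in control rats 1 to 3 and at 0.309, 0 and 0.314 in TPN rats 1 to 3. Means over the 6 livers ran from 3.36 FPKM for Mrpl47 to 54.1 FPKM for Mrpl33. A mean under 10 FPKM was found in 18 members, one from 10 to 30 FPKM in 48, and one of 30 FPKM or more in 9. The median of these means was 17.9 FPKM, against 6.31 FPKM over all 11362 rows tested.

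No member passed the test between TPN and control livers (limma on log2(FPKM + 1), Benjamini-Hochberg adjustment over all 11362 rows, threshold 0.05). Over all rows 28 passed, which is 0.246%, with 3 higher and 25 lower in TPN livers. At that rate, 0 of 75 is near the background. The smallest adjusted p of a member was 0.417. At an unadjusted p under 0.05 stood 1 member, Mrps18b, which was higher in TPN livers, and no member that was lower. Over all rows that limit was met by 504 rows (4.44%) in the higher direction and 796 rows (7.01%) in the lower direction.

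Fold changes are given as the difference in log2(FPKM + 1), TPN minus control, a scale that understates the change of genes near 1 FPKM. Among the 75 members 46 differences were above 0 and 29 below, their median was 0.039, and they ran from -0.23 to 0.56. The median over all rows was 0.0065, and those rows ran from -3.93 to 4.93. An absolute difference over 0.5 was found in 2 members, Mrps18b and Mrpl12. The 95% interval of the difference, taken gene by gene, lay between -1 and 1 for 72 of the 75 members (96.0%), against 81.2% of all rows. A change larger than 2-fold on this scale thus lay outside the interval of those 72. The exceptions were Mrps18b (0.026 to 1.10), Mrpl12 (-0.059 to 1.09) and Mrps10 (-0.50 to 1.01). The median standard error of a member was 0.187, close to the 0.191 over all rows.

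**Figure D1:**
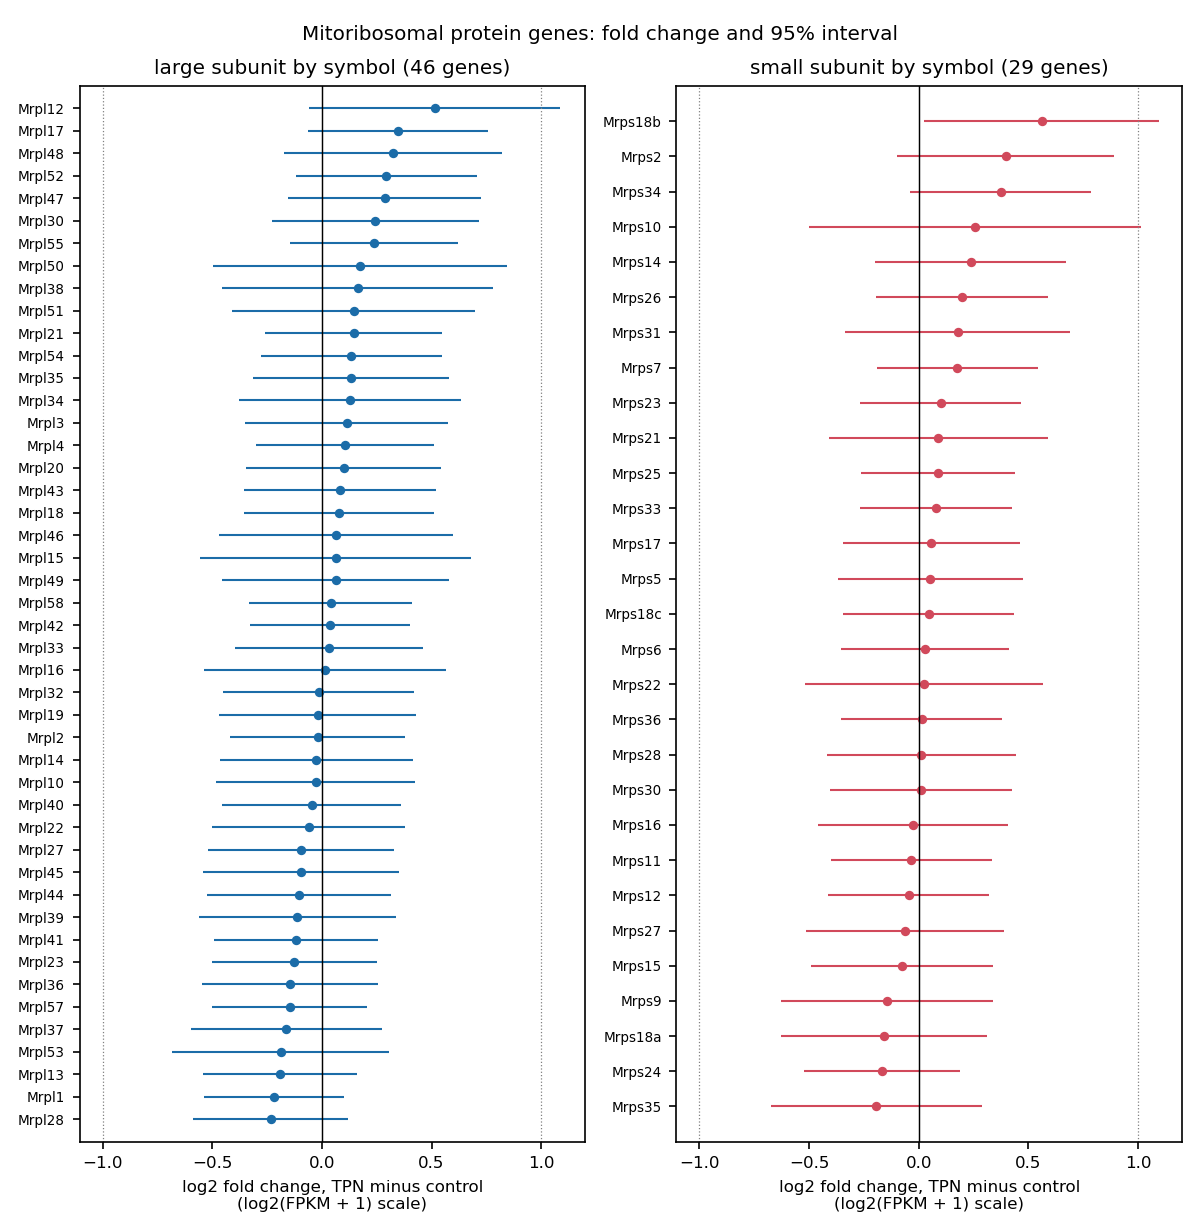
Difference in log2(FPKM + 1), TPN minus control, of each tested mitoribosomal gene, with its 95% interval from limma, ordered within the large and the small subunit; dotted lines stand at -1 and 1. Only 3 intervals cross a dotted line, Mrps18b has the highest value (0.56) and Mrpl28 the lowest (-0.23).

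The promoter of Mrps18b is shown first because this gene had the highest difference of the family, followed by those of Mrpl17, also higher in each TPN rat than in any control rat, and of Mrpl12, the large subunit member with the highest difference. Each line holds 100 bases before the annotated transcription start and 50 after it, 5′ to 3′ on the strand of the gene. The sequences and positions are those of RefSeq for the rat build GRCr8, not those of the build behind the FPKM values. Capitals mark letters that match GCATGCGC, the core of the motif of NRF1, CCGGAAG, a motif of ETS factors such as GABPA, or AAGATGGC, a motif of YY1, on either strand. These factors are known from promoters of nuclear genes for mitochondrial proteins. Matches on opposite strands may overlap, as in the longer palindromic run of the NRF1 motif.
Mrps18b: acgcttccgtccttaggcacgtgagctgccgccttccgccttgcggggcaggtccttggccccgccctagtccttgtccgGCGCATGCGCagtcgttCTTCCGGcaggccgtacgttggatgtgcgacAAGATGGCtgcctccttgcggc
Mrpl17: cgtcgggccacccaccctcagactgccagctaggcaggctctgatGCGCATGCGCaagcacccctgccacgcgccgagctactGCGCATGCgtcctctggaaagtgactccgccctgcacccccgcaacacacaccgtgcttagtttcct
Mrpl12: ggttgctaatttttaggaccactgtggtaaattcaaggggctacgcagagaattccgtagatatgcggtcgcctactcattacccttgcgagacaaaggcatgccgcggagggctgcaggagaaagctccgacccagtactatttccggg
The Mrps18b stretch is chr20:2842906-2843055 on the plus strand and holds all 3 motifs. The Mrpl17 stretch is chr1:169575650-169575799 on the minus strand and holds the NRF1 motif at separate places. The Mrpl12 stretch is chr10:106256646-106256795 on the plus strand and holds none of them. A match describes letters and shows no binding.

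Mrps18b (ENSRNOG00000000804) encodes one of the 3 mammalian relatives of the bacterial small subunit protein S18, and like Mrps18c it sits in the small subunit. Its level was 28.8, 30.9 and 25.7 FPKM in control rats 1 to 3 and 39.9, 32.6 and 58.3 FPKM in TPN rats 1 to 3. The groups did not overlap, but TPN rat 2 lay within 2 FPKM of control rat 2. The mean was 28.5 ± 2.59 FPKM (SD, n = 3) in control and 43.6 ± 13.2 FPKM (SD, n = 3) in TPN livers, a ratio of 1.53. The log2 difference was 0.56 (SE 0.23), with a limma adjusted p of 0.417, and it was 0.33 without TPN rat 3. The other relatives lacked this pattern. Mrps18c had 17.5, 13.2 and 16.8 FPKM in control rats and 15.9, 14.99 and 17.9 FPKM in TPN rats, a log2 difference of 0.045 (SE 0.17). Mrps18a, which despite its symbol is part of the large subunit, had 24.0, 14.95 and 22.0 FPKM in control rats and 17.1, 16.8 and 19.5 FPKM in TPN rats, a log2 difference of -0.16 (SE 0.20). All TPN rats lay inside the control range for Mrps18a, and 2 of 3 did for Mrps18c. Whether the 3 relatives differ in their response was not tested.

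Besides Mrps18b, the control and TPN values did not overlap in 3 members that were higher in TPN livers, Mrps34, Mrpl17 and Mrpl52, and in 2 that were lower, Mrpl1 and Mrpl13. These are 4 and 2 of 75 members, against 8.02% of all rows in the higher and 9.09% in the lower direction, so the family held no larger share of such genes than the table as a whole. Mrps34, a protein found only in mitochondrial ribosomes and needed for a stable small subunit, had 35.0, 33.0 and 38.1 FPKM in control rats and 44.7, 40.2 and 54.3 FPKM in TPN rats. Its log2 difference was 0.37 (SE 0.18, limma adjusted p 0.479). Mrpl17, whose bacterial relative lies near the exit of the peptide tunnel, had 42.2, 36.6 and 40.4 FPKM in control rats and 58.4, 43.6 and 51.3 FPKM in TPN rats. Its highest value was in TPN rat 1, not in TPN rat 3. Its log2 difference was 0.35 (SE 0.18, limma adjusted p 0.51). Mrpl52, a large subunit protein without a bacterial relative, had 20.3, 26.8 and 28.1 FPKM in control rats and 32.9, 30.2 and 28.96 FPKM in TPN rats. Control rat 1 stood below the other 5 livers, and the log2 difference of 0.29 (SE 0.18) was 0.15 without it.

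Mrpl1 encodes the protein of the mobile stalk by which spent transfer RNA leaves the large subunit. It had 7.66, 8.11 and 7.02 FPKM in control rats and 6.79, 6.26 and 6.08 FPKM in TPN rats. The highest TPN value came close to the lowest control value, and the log2 difference was -0.22 (SE 0.14, limma adjusted p 0.599). Mrpl13, a large subunit protein with a bacterial relative, had 19.4, 16.2 and 16.9 FPKM in control rats and 14.0, 15.4 and 16.1 FPKM in TPN rats. Here the groups were separated by less than 0.1 FPKM, between control rat 2 and TPN rat 3, and the log2 difference of -0.19 (SE 0.15) was -0.12 without control rat 1. Mrpl28, chosen after its values were seen because its log2 difference of -0.23 was the lowest of the family, had 20.1, 17.6 and 19.7 FPKM in control rats and 15.2, 15.3 and 17.97 FPKM in TPN rats, with TPN rat 3 inside the control range.

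**Figure D2:**
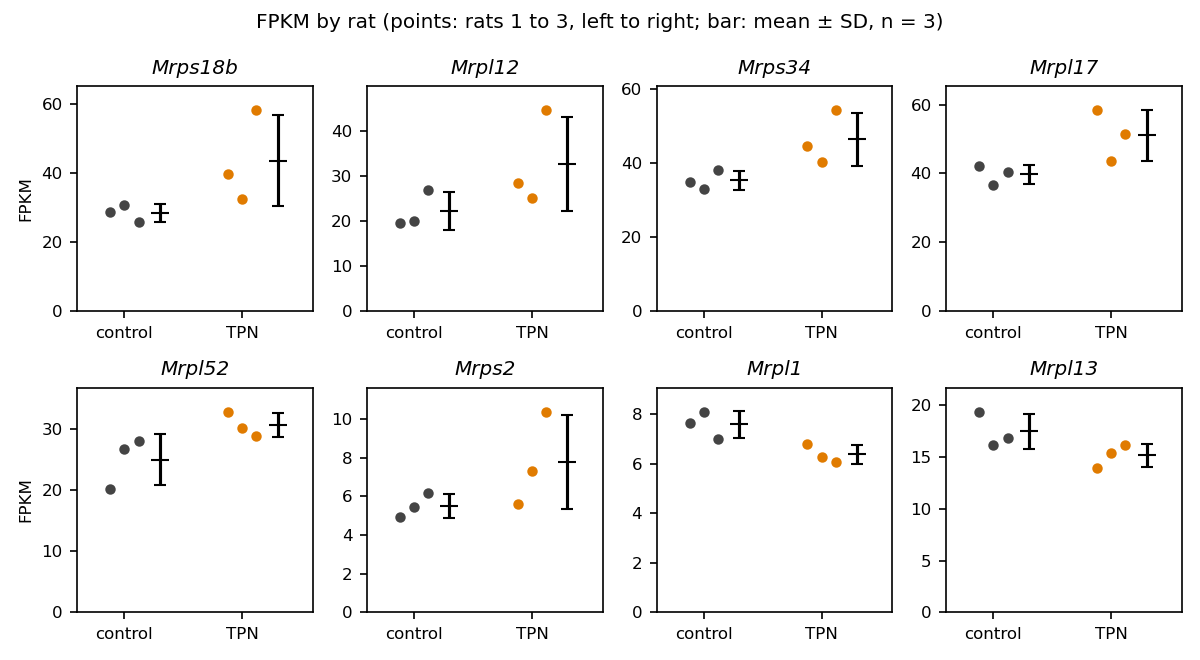
FPKM of 8 mitoribosomal genes in each rat (points, rats 1 to 3 from left to right) with the mean and SD of each group (n = 3), on axes that start at 0. The groups do not overlap for Mrps18b, Mrps34, Mrpl17, Mrpl52, Mrpl1 and Mrpl13, and they do for Mrpl12 and Mrps2.

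In the large subunit, the stalk that recruits translation factors is built from Mrpl10 and copies of Mrpl12, and Mrpl12 is also known to bind the mitochondrial RNA polymerase. Mrpl12 had 19.5, 20.02 and 26.95 FPKM in control rats and 28.4, 25.1 and 44.6 FPKM in TPN rats. TPN rat 2 fell below control rat 3, so the groups overlapped. The log2 difference of Mrpl12 was 0.51 (SE 0.25, limma adjusted p 0.481), and it was 0.27 without TPN rat 3. Its partner Mrpl10 had 16.7, 12.3 and 15.3 FPKM in control rats and 11.6, 14.8 and 17.3 FPKM in TPN rats, with a log2 difference of -0.029 (SE 0.20). Mrpl3, which reaches towards the catalytic centre, had 18.4, 15.3 and 17.0 FPKM in control rats and 14.0, 19.2 and 22.6 FPKM in TPN rats. The TPN rats thus lay on both sides of the control range.

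Near the tunnel exit, Mrpl45 helps to anchor the ribosome to the inner membrane, and Mrpl44 and Mrpl47 are neighbours of that site. Mrpl45 had 7.16, 5.36 and 6.74 FPKM in control rats and 5.10, 5.19 and 7.73 FPKM in TPN rats. Mrpl44 had 9.80 FPKM in control rat 2, within 0.3 FPKM of the other controls, and 7.98, 7.84 and 11.8 FPKM in TPN rats 1 to 3. For Mrpl45 and Mrpl44, TPN rats 1 and 2 were below every control rat and TPN rat 3 above every one. Mrpl47, the tested member with the lowest level, had 2.48, 3.24 and 2.98 FPKM in control rats and 2.82, 3.72 and 4.89 FPKM in TPN rats, a log2 difference of 0.29 (SE 0.19) that was 0.13 without TPN rat 3 and 0.44 without TPN rat 1. Mrpl41, a large subunit protein without a bacterial relative, had a log2 difference of -0.12 (SE 0.16). Mrpl58, a release factor relative built into the large subunit that can free stalled chains, had 17.7 ± 2.46 FPKM (SD, n = 3) in control and 18.2 ± 0.655 FPKM (SD, n = 3) in TPN livers. Mrpl33, the most abundant member, had 53.3 ± 5.37 FPKM (SD, n = 3) in control and 54.8 ± 8.30 FPKM (SD, n = 3) in TPN livers.

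In the small subunit, Mrps12 lies at the decoding centre and had 25.0 ± 1.80 FPKM (SD, n = 3) in control and 24.2 ± 2.497 FPKM (SD, n = 3) in TPN livers. Mrps2, one of the proteins with a bacterial relative, had 4.93, 5.46 and 6.16 FPKM in control rats and 5.61, 7.32 and 10.4 FPKM in TPN rats. Its TPN rat 1 lay within the control range, and the log2 difference was 0.40 (SE 0.21, limma adjusted p 0.531), or 0.19 without TPN rat 3. Mrps22, a protein found only in mitochondrial ribosomes, had 11.8, 10.7 and 13.9 FPKM in control rats and 8.48, 13.7 and 15.9 FPKM in TPN rats. The TPN values again enclosed the control range. Mrps10 and Mrps6 had the lowest levels of the tested small subunit members, with means over the 6 livers of 5.18 and 6.39 FPKM. Mrps10 also had the widest interval of the family. Its values ran from 3.04 to 6.76 FPKM among the control rats and from 3.47 to 8.21 FPKM among the TPN rats. Mrps30, which like Mrps18a is part of the large subunit despite its symbol, had 14.2 ± 1.83 FPKM (SD, n = 3) in control and 14.4 ± 2.495 FPKM (SD, n = 3) in TPN livers. Mrps36, a component of the alpha-ketoglutarate dehydrogenase complex and not of the ribosome, had 6.69 ± 0.946 and 6.75 ± 0.741 FPKM (SD, n = 3 each).

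Both subunits had medians near 0. The 46 large subunit members had a median log2 difference of 0.038, with 26 above 0 and 20 below. The 29 tested small subunit members had a median of 0.045, with 20 above 0 and 9 below. The large median minus the small median was -0.0064. Rat by rat, that difference between the subunits' median deviations was -0.027, 0.027 and -0.0053 in control rats 1 to 3 and -0.073, -0.00056 and 0.013 in TPN rats 1 to 3, so that the gap between the groups lay inside the spread among rats. Genes without overlap between the groups were 2 higher and 2 lower in the large subunit (4.35% each), and 2 higher (6.9%) and 0 lower in the small subunit. Over all rows these shares were 8.02% higher and 9.09% lower. Placing Mrps18a and Mrps30 with the large subunit and leaving out Mrps36 gave medians of 0.036 over 48 and 0.055 over 26 members. Summed over the subunit, the large to small ratio of FPKM was 1.70, 1.72 and 1.74 in control rats and 1.62, 1.69 and 1.71 in TPN rats. TPN rat 1 had the lowest ratio, and the other 5 livers lay between 1.69 and 1.74.

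The members were also split by origin. The 43 members classed as bacterial ribosomal proteins had a median log2 difference of 0.034, with 25 above 0. The 31 members classed as particular to the mitochondrial ribosome had a median of 0.062, with 20 above 0. Mrps18a and Mrps18b were counted among these 31, as additions at places that bacterial ribosomes leave without such a protein, although both are relatives of S18, and Mrps18c was counted as bacterial. No test was made between these classes, whose members share the same 6 livers.

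Summed levels differed more among rats of one group than between the group means. The summed FPKM of all 75 members was 1439, 1241 and 1451 in control rats 1 to 3 and 1351, 1336 and 1692 in TPN rats 1 to 3. That is 1377 ± 118 FPKM (SD, n = 3) in control and 1460 ± 202 FPKM (SD, n = 3) in TPN livers, with overlapping groups. TPN rat 3 held the highest value of the 6 livers for 46 of the 75 members, and control rat 1 for 15. Over all 11362 rows, TPN rat 3 was highest in 4238 and control rat 1 in 2259. TPN rat 1 held the lowest value for 26 members and control rat 2 for 25, against 3570 and 1851 of all rows. Expressed as the median deviation from each gene's own mean in log2(FPKM + 1), the family stood at 0.065, -0.17 and 0.064 in control rats and -0.15, -0.054 and 0.22 in TPN rats. Over all rows the same measure was 0.036, -0.065 and 0.017 in control rats and -0.099, -0.044 and 0.13 in TPN rats. The sign in each rat was the same for the family as for the whole table, with larger values in the family. Without TPN rat 3 the family's median log2 difference was -0.10, with 23 above 0 and 52 below, against a median of -0.063 over all rows. Without control rat 2 it was -0.041, and without TPN rat 1 it was 0.095.

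**Figure D3:**
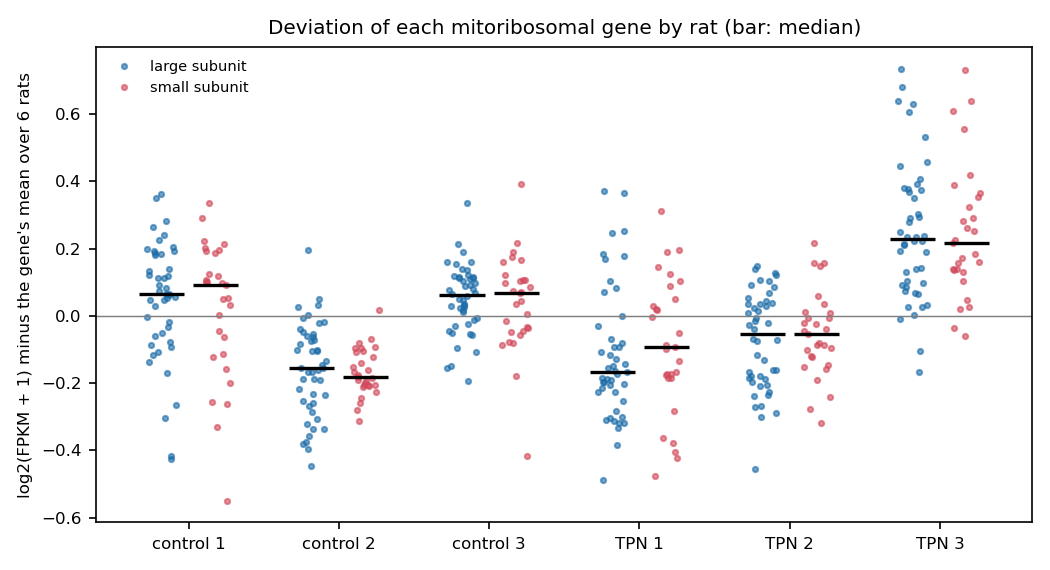
Deviation of each tested mitoribosomal gene from its own mean over the 6 livers (log2(FPKM + 1)) in each rat, large and small subunit apart (points), with the subunit median as a bar. Both subunits lie low in control rat 2 and TPN rat 1 and high in TPN rat 3.

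Values of the acute-phase genes, which hepatocytes induce in inflammation, are given beside these values. Their score, a mean of log2(FPKM + 1) over the list, was 8.47, 10.9 and 8.84 in control rats 1 to 3 and 12.6, 10.8 and 10.3 in TPN rats 1 to 3. It was highest in TPN rat 1 and, among the controls, in control rat 2. With this score as a covariate, an alternative added after the data were seen, the family's median log2 difference was 0.24, with 70 members above 0 and 5 below, and the median over all rows was 0.11. No member passed the limma test there either, and the smallest adjusted p was 0.318. The score itself went with the groups, lowest in control rats 1 and 3 and highest in TPN rat 1. With 3 rats a group, this fit cannot separate the score from TPN. The part of the acute-phase response in the family's values was not tested.

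Other genes needed for mitochondrial translation were read from lists, and none of their members passed the limma test. The 5 tested mitoribosomal proteins with other symbols, Ptcd3, Dap3, Chchd1, Gadd45gip1 and Aurkaip1, all had differences above 0, with a median of 0.11, and their groups overlapped. Of 28 tested genes for ribosome assembly and ribosomal RNA modification, 20 were above 0 and 8 below, with a median of 0.069. In 5 of them (17.9%) all TPN rats were above all controls, against 8.02% of all rows. Mrm3, a methyltransferase of the mitochondrial large subunit RNA, had 2.78, 2.72 and 2.11 FPKM in control rats and 3.24, 4.85 and 4.84 FPKM in TPN rats. Its log2 difference was 0.58 (SE 0.18, limma adjusted p 0.308). Mrm1, another methyltransferase of that RNA, had 1.23 ± 0.123 and 2.40 ± 0.983 FPKM (SD, n = 3 each), and Ddx28, a helicase of large subunit assembly, had 3.73 ± 0.237 and 5.08 ± 0.668 FPKM (SD, n = 3 each), in control and TPN livers. Neither overlapped between the groups, with limma adjusted p of 0.375 and 0.414.

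The 13 translation factors had 4 differences above 0 and 9 below, a median of -0.077 and overlapping groups in all. Mtfmt, which formylates the initiator transfer RNA, had 7.61 ± 1.26 FPKM (SD, n = 3) in control and 5.76 ± 0.814 FPKM (SD, n = 3) in TPN livers. Tsfm, the exchange factor of the elongation factor Tufm, had 8.29 ± 1.46 and 10.5 ± 1.997 FPKM (SD, n = 3 each), and Mtrf1l, a release factor, had 4.94 ± 0.776 and 4.04 ± 1.13 FPKM (SD, n = 3 each), in control and TPN livers. Of 11 genes for mitochondrial transcription and DNA maintenance, 7 were above 0, with a median of 0.11. Tefm, the elongation factor of the mitochondrial polymerase, had 4.06, 3.76 and 3.58 FPKM in control rats and 4.59, 5.81 and 7.85 FPKM in TPN rats. Twnk, the mitochondrial DNA helicase, had 4.16, 3.59 and 4.91 FPKM in control rats and 5.67, 5.96 and 5.85 FPKM in TPN rats. For Tefm and Twnk the groups did not overlap, with limma adjusted p of 0.354 and 0.38. They are 18.2% of the 11 genes, against 8.02% of all rows in the higher direction. Top1mt, a mitochondrial topoisomerase, had 9.35 ± 0.689 and 7.77 ± 1.65 FPKM (SD, n = 3 each) in control and TPN livers.

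Among 10 tested regulators of nuclear genes for mitochondrial proteins, 5 were above 0 and 5 below. Pprc1, a coactivator related to PGC-1, had 0.840, 1.66 and 1.498 FPKM in control rats and 2.45, 4.28 and 3.81 FPKM in TPN rats. Its log2 difference of 0.95 (SE 0.22) was larger than that of any mitoribosomal gene, but its limma adjusted p was 0.173. Ppargc1a, the coactivator PGC-1 alpha, had 1.74 ± 0.340 and 3.02 ± 1.04 FPKM (SD, n = 3 each), and Esrra, a nuclear receptor that it coactivates, had 10.4 ± 1.16 and 13.7 ± 1.66 FPKM (SD, n = 3 each), in control and TPN livers. For these 3 genes every TPN rat was above every control rat, which is 30% of the regulators tested, against 8.02% of all rows. The factors whose motifs are marked above, chosen after their values were seen, differed little: the log2 difference was -0.050 (SE 0.14) for Nrf1, 0.014 (SE 0.18) for Gabpa and -0.027 (SE 0.19) for Yy1. Of 13 mitochondrial chaperones and proteases, 8 were above 0, with a median of 0.10. Atf5, a regulator of the mitochondrial stress response, had 207 ± 33.4 and 299.8 ± 57.4 FPKM (SD, n = 3 each), with overlap between the groups. The protease Clpp had a log2 difference of 0.28 (SE 0.18) and the chaperone Trap1 one of -0.36 (SE 0.30).

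The products of this ribosome and its cytosolic counterpart are set beside it. The 13 messages of mitochondrial DNA had 3 differences above 0 and 10 below, with a median of -0.083, and each of the 13 was lowest in TPN rat 1. Mt-co1, a core subunit of cytochrome oxidase, had 13760 ± 1554 FPKM (SD, n = 3) in control and 11580 ± 2217 FPKM (SD, n = 3) in TPN livers. The 76 tested nuclear subunits of the respiratory chain and ATP synthase had 16 above 0 and 60 below, with a median of -0.098. Of these, 3 (3.95%) were lower in every TPN rat than in any control rat, against 9.09% of all rows. The 86 tested cytosolic ribosomal protein rows had 80 above 0 and 6 below, with a median of 0.38. In 65 of them (75.6%) every TPN rat was above every control rat, against 8.02% of all rows. None of these passed the limma test, and the smallest adjusted p was 0.0928, for Rps12. Cytosolic ribosomal protein genes have many near-identical copies, so their levels are uncertain. The mitoribosomal median of 0.039 lay between those of the cytosolic ribosome and the respiratory chain. The differences between these sets were not tested.

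**Figure D4:**
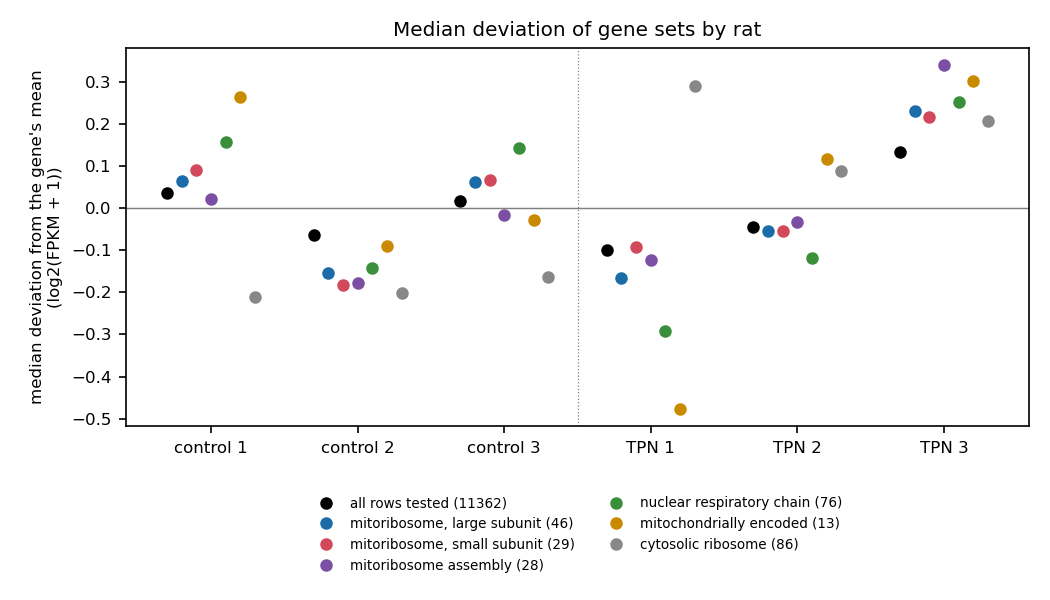
Median deviation from each gene's mean (log2(FPKM + 1)) in each rat for all rows tested, the large and small mitoribosomal subunit, ribosome assembly genes, nuclear respiratory chain subunits, mitochondrially encoded genes and cytosolic ribosomal proteins, with the number of rows in each. The 2 mitoribosomal subunits lie beside each other in every rat, mitochondrially encoded genes are lowest in TPN rat 1, and the cytosolic ribosome is below 0 in the 3 control rats and above 0 in the 3 TPN rats.

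Short motifs, which the choice of members did not use, were counted in the promoters of the family. RefSeq start sites on GRCr8 gave windows of 300 bases, 250 before the start and 50 after it, for 60 of the 76 members and for 27457 genes in all, 7967 of them among the tested rows. A gene with several windows, such as Mrpl14 or Mrps21, was counted as having a motif if any of them matched. The ETS motif CCGGAAG stood on either strand in 21 of the 60 members (35.0%), against 19.6% of tested genes and 9.63% of all genes. The YY1 motif AAGATGGC stood in 15 (25.0%), against 6.36% of tested genes and 3.62% of all genes. The NRF1 core GCATGCGC stood in 5 (8.33%), against 5.46% of tested genes and 2.77% of all genes. These members were Mrpl17, Mrpl22, Mrpl32, Mrpl44 and Mrps18b. CCAAT stood in 27 (45.0%), against 39.7% of tested genes and 39.6% of all genes. TATAAA stood in 8 (13.3%), above the 7.37% of tested genes but below the 15.3% of all genes. The ETS motif was in 13 of 38 large and 8 of 22 small subunit members, and the YY1 motif in 8 of 38 and 7 of 22. Members with the ETS motif had a median log2 difference of 0.090 and those without it 0.038. For the YY1 motif these medians were 0.038 and 0.052, and for the NRF1 core -0.016 and 0.052.

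Many mitoribosomal genes start back to back with another gene. A tested neighbour on the opposite strand with its start within 1000 bases was found for 15 of the 60 members (25.0%), against 714 of 7967 tested genes with a window (8.96%). Mrpl46 and Mrps11 are such a pair, with one protein for each subunit and 234 bases between their starts. They are outside the rule for named genes and were picked for this position after their values were seen, and the stretches around both starts are shown to compare the sides of a single region read in opposite directions.
Mrpl46: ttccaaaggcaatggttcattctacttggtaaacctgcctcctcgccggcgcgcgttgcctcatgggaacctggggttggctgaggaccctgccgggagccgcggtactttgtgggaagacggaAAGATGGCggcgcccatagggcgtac
Mrps11: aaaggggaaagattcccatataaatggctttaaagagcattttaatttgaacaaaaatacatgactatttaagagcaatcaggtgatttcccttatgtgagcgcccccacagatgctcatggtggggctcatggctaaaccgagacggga
The Mrpl46 stretch is chr1:142116981-142117130 on the minus strand and the Mrps11 stretch is chr1:142117164-142117313 on the plus strand of GRCr8, with the YY1 motif in capitals in the first. Mrpl46 had 11.6, 6.98 and 9.74 FPKM in control rats and 7.80, 9.30 and 12.6 FPKM in TPN rats. Mrps11 had 22.3, 17.4 and 18.3 FPKM in control rats and 18.3, 19.5 and 18.5 FPKM in TPN rats. Both genes were lowest in control rat 2 and next lowest in TPN rat 1, while the highest value was in TPN rat 3 for Mrpl46 and in control rat 1 for Mrps11. The neighbour of Mrps18b is Ppp1r10, a phosphatase subunit, 588 bases away, with a log2 difference of 0.53 (limma adjusted p 0.356) beside the 0.56 of Mrps18b. Some other pairs, picked after their values were seen, differed more from each other. The log2 difference was 0.29 for Mrpl47 and -0.097 for Ndufb5, a respiratory chain subunit that also overlaps Mrpl47 on GRCr8. It was 0.14 for Mrpl51 and -0.25 for the condensin subunit Ncapd2. For Mrpl49 it was 0.062, and for Fau, a ribosomal protein precursor, 1.07. The limma adjusted p was 0.92 for Ndufb5, 0.678 for Ncapd2 and 0.751 for Fau. Further pairs lay close, such as Mrpl37 (-0.16) and Cyb5rl (-0.13).

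Some of these values are less certain than their replicate spread. On GRCr8, 19 of the 75 members whose symbol RefSeq holds overlap another annotated gene. For 9 of them such a gene was itself tested, as Twnk for Mrpl43 and Guk1 for Mrpl55. Whether the libraries kept strand is not given in the sources used here, so reads in such overlaps cannot be told apart. Named pseudogenes, 40 in all, exist for 23 members, among them 9 for Mrpl30, 2 for Mrpl17 and 1 for Mrps18b, and reads shared with these copies could shift a level.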

How the data were processed

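Livers of 3 control and 3 TPN rats were grouped by their titles. Expression came as FPKM in a single table that the authors deposited, without read counts. Per the submitters' processing notes, Bowtie 0.12.2, Cufflinks and the build Rnor_6.0 were used. Their settings were not stated there. Ratios of values under 0.3 FPKM showed no steps of whole reads (at most 0.853% in 1 bin of 0.01 on the log2 scale), so depth is unknown and no counting interval is given. Rows with a mean of at least 1 FPKM were tested on log2(FPKM + 1) with limma 3.58.1 (statmod 1.5.0, R 4.3.3; empirical Bayes with trend and robust settings, group as the only term, 2-sided, Benjamini-Hochberg over all rows, threshold 0.05). The script was tested on simulated data. An exact test of 3 against 3 cannot give a p under 0.1. The series' design text names 3 rats per group, so p-values measure the spread between animals.

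The members, gene lists and tests were chosen with earlier results of these data known. Named genes were members that passed the test, members without overlap between the groups (up to 8 a direction), the 2 highest and 2 lowest by level in each subunit, 17 fixed members (16 with a row, 1 not analysed here) and up to 3 of each list with the smallest p. Alternatives changed the pseudocount, filter, scaling, moderation, sample weights, replicate block, left-out rats, subunit assignment and averaging. Promoters, neighbours and pseudogenes came from RefSeq tables of GRCr8, read with Python 3.11.15 and pandas 2.3.3.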

Additional observations from a re-analysis of the deposited data

How the results depend on the processing

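No mitoribosomal row passed the limma test in any of the 20 settings, and the smallest adjusted p of a member was 0.174, for Mrpl28 with sample weights. The number of all rows that passed was less stable: 28 as reported, 18 with a pseudocount of 0.1, 5 with 0.01, 6 with a mean of at least 5 FPKM, 8 without trend or robust settings and 299 with sample weights. It was 0 without a filter, with median-ratio scaling and with quantile normalisation, where limma gave 382, 679 and 764 rows higher and 797, 877 and 827 lower at an unadjusted p under 0.05. Leaving out 1 rat gave 0 to 46 rows, 0 without TPN rat 3 (390 higher and 1003 lower at an unadjusted p under 0.05), 1 without TPN rat 2, 3 without control rat 1, 6 without control rat 3 and 46 without control rat 2. Of the 2 alternatives added after seeing the data, the acute-phase score as a covariate gave 1 row and leaving out control rat 2 and TPN rat 1 together gave 121. That covariate also moved the median log2 difference of the large subunit to 0.21 and of the small subunit to 0.24. The large minus small difference ran from -0.075 to 0.032 when 1 rat was left out, without TPN rat 3 and without TPN rat 1. The family's median log2 difference was below 0 without TPN rat 3, without control rat 2, with sample weights (-0.076, with 26 members above 0) and without control rat 2 and TPN rat 1 together (-0.0016). It was 0.052 with median-ratio scaling, 0.064 with quantile normalisation and 0.061 as TPM. Mrps18b ran from 0.33 to 0.74 and was above 0 in 20 of 20 settings. Its groups did not overlap, so leaving out rats could not turn its sign, and all settings drew on the same 6 livers. Other named members, such as Mrpl12 and Mrps34, were also above 0 in 20 of 20 settings, and Mrpl1 and Mrpl13 in 0. With the replicate number as a term (replicate block), 58 rows passed and no member. Deviations of same-numbered rats correlated at -0.21, -0.14 and 0.32, and those of differently numbered rats at -0.35 to 0.42. Such values cannot show whether the numbers pair the rats, and the titles do not say. Without counts, the limit set by depth is unknown.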
